A study of Rattus norvegicus with 8 samples.

Results

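The machinery that copies DNA was followed in saphenous arteries of young and adult rats, through 49 genes of DNA replication and deoxynucleotide synthesis that were taken by gene symbol. They encode the MCM helicase and its loaders and activators, the replicative primase and polymerases, the sliding clamp with its loader, the single-strand binding protein and the strand-joining enzymes, deoxynucleotide enzymes, chromatin assembly factors and both E cyclins. Of these, 43 were measured among the 19239 genes of the array, and Mcm4, Cdc45, Tk1, Rrm1, Rrm2 and Chaf1a were not analysed here. The genes are defined by symbol, with no threshold on a measured value.

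The saphenous artery is a muscular artery of the hind limb. All animals were male Wistar rats, and messenger RNA was measured with 1 array per sample in 4 samples of young rats (10 to 12 days old) and 4 samples of adult rats (2 to 3 months old). A young sample held 4 arteries pooled from 2 animals and an adult sample held the 2 arteries of 1 animal, so that a young value is already an average over animals and the samples of a group came from different animals. The number of arrays limits the precision. Values are log2 expression, on which a difference of 1 is a factor of 2, and differences are adult minus young ± the standard error of the limma fit over all genes with n = 4 arrays per age. A gene was called higher or lower at a Benjamini-Hochberg adjusted p below 0.01 (two-sided).

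Before a cell divides, the origin recognition complex, Cdc6 and Cdt1 load the ring-shaped MCM helicase on DNA, and the GINS complex, Cdc45 and Mcm10 turn the loaded ring into an active helicase. DNA polymerase alpha with primase then lays down primers, polymerases delta and epsilon extend them on the Pcna clamp, and flap endonuclease and ligase join the pieces. Many of these genes are transcribed by E2F factors, which are held back by retinoblastoma proteins in resting cells. The artery wall grows by cell division after birth, whereas smooth muscle cells of the adult artery divide rarely.

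The letters of E2F sites can be read in the start regions of these genes. A promoter was taken from RefSeq (GRCr8 assembly) as 250 bases before to 50 bases after the annotated start, and 38 of the 43 measured genes had one. Each was searched on both strands for the E2F words TTTGGCGC, TTTCCCGC, TTTCGCGC and TTTGCCGC, and overlapping matches were merged into 1 stretch. The whole promoter of Mcm2, the helicase gene with the largest difference between the ages, is shown 5′ to 3′ on the strand of the gene with the E2F stretch in capitals.
Mcm2 promoter (chr4:122918045-122918344, minus strand): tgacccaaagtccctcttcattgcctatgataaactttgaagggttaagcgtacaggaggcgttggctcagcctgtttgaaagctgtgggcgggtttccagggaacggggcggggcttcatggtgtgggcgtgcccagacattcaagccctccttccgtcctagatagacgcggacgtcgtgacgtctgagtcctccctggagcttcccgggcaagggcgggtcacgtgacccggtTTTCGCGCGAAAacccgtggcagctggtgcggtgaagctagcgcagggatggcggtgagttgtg
The stretch lay from -14 to -3 relative to the annotated start and held the same word on both strands. The helicase genes, Tyms, Pole, Lig1 and Cdt1 are shown next, with Gins1 and Orc5, whose values moved little or in the other direction. Rfc3, Gins3, Pola1, Pold3 and Pole2, called lower, and Rpa2, Gmnn and Orc3, not called, also held stretches, which are not printed here. Each line holds 1 stretch in capitals with up to 8 bases on either side, on the strand of the gene.
Mcm2 (chr4:122918089-122918116, minus strand): gacccggtTTTCGCGCGAAAacccgtgg
Mcm3 (chr9:30733737-30733760, minus strand): cttccgtgGCGGGAAAacttggga
Mcm3 (chr9:30733718-30733741, minus strand): tgggaagtTTTCGCGCcagggagg
Mcm5 (chr19:13488592-13488619, plus strand): ctcagaagTTTCGCGCCAAAacgtcccg
Mcm5 (chr19:13488797-13488820, plus strand): ggttggttTTTCCCGCgaaagtcg
Mcm6 (chr13:42404472-42404499, minus strand): cgtctgctTTTGGCGCGAAAttagcgtg
Mcm7 (chr12:22163396-22163419, minus strand): ttcgaaccGCGGGAAAtcgggtgc
Mcm7 (chr12:22163215-22163238, minus strand): tgacgacgTTTCGCGCcaatttcg
Tyms (chr9:120776105-120776128, minus strand): gtgcgggtTTTGGCGCcgactaca
Pole (chr12:52053649-52053672, minus strand): atgagagcGCGCCAAAttttcccg
Lig1 (chr1:83243181-83243204, plus strand): aggtctgcGCGCGAAAtctgtgtg
Cdt1 (chr19:67529248-67529271, plus strand): cgaaaattGCGCGAAAtccgcggg
Cdt1 (chr19:67529273-67529296, plus strand): agtagcttTTTGGCGCcatggcgc
Gins1 (chr3:160184887-160184914, plus strand): taagcctaTTTGGCGCCAAAgagaggag
Orc5 (chr4:13440149-13440172, plus strand): ggtagttaGCGGGAAAgcgcaggc
All 5 measured helicase genes held a word. In Mcm2, Mcm5, Mcm6 and Gins1, words on opposite strands overlapped into a stretch of 12 bases. The promoters of Prim1 and Prim2 held none of these words.

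An E2F word was found in 19 of the 38 promoters (50%). Among the 14768 genes of the array with a promoter the share was 3.12%, and among those with a promoter GC content of at least 60% it was 4.32% (267 of 6177). The median GC content was 60.2% in the replication promoters and 57.7% in those of the array. Of 24 stretches, 19 lay at most 100 bases before the annotated start or after it. A match is a description of letters only, and no protein binding was measured.

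**Figure D1:**
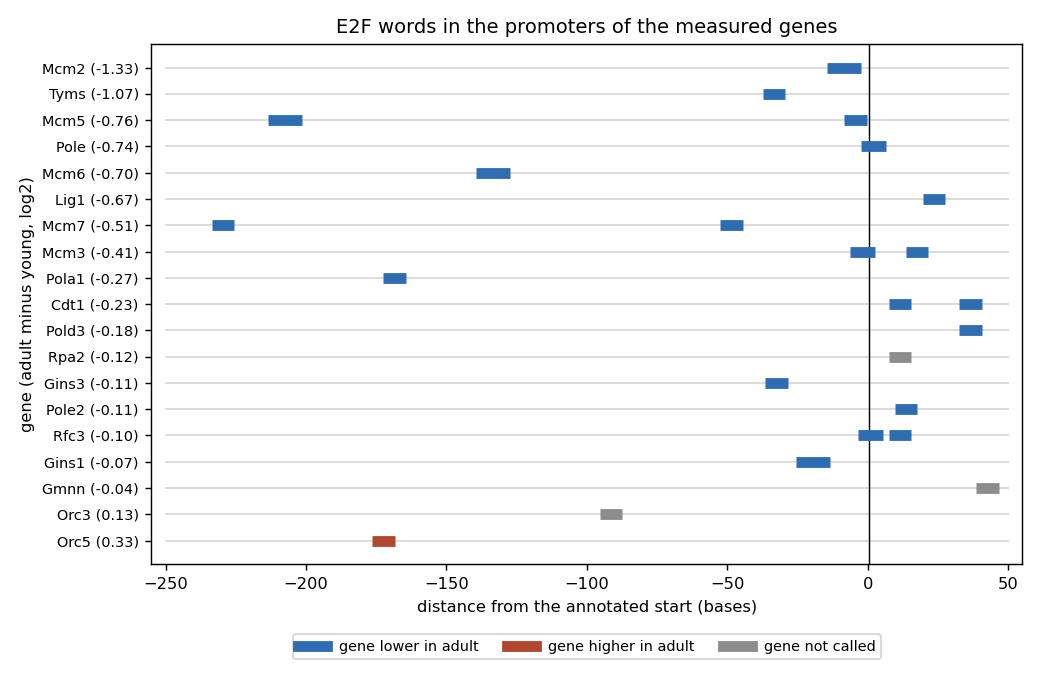
Position of E2F words in the 19 promoters that held one, as distance from the annotated start in bases (x axis), with the adult minus young log2 difference in brackets after each gene name (y axis, ordered by difference). Blue bars belong to genes called lower in adult arteries, the red bar to Orc5, called higher, and grey bars to genes not called; most bars lie close to the start.

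Most of the replication genes were expressed less in adult than in young arteries. Of the 43 genes, 31 were down-regulated (72.1%) and 1 was up-regulated (limma, adjusted p below 0.01), whereas 32.7% of all genes differed, 16% lower and 16.7% higher. All adult values lay below all young values in 32 of the 43 genes, against 21.5% of all genes, and all adult values lay above in 2, against 24.4%. The median difference was -0.18 for these genes and 0.00 for all genes, with a range from -1.33 for Mcm2 to 0.33 for Orc5. A fall of at least 1.5-fold was found in 7 genes (3.7% of all genes) and of at least 2-fold in 3 genes, Mcm2, Prim1 and Tyms (1.32% of all genes). These counts rest on the scale of the array: with its lowest intensity subtracted they were 18 genes at 1.5-fold (7.51% of all genes) and 9 genes at 2-fold (3.03% of all genes). Bulk samples cannot tell fewer cells of a type from less RNA per cell.

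The mean over the 43 genes was 7.33, 7.35, 7.36 and 7.35 in the adult arrays and 7.64, 7.63, 7.64 and 7.63 in the young arrays. Each age was thus held within a narrow band, and the ages were far apart relative to that band. The adult mean was below the median of all values (7.29) in 28 of the genes, and the young mean in 15.

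Quantile normalization gave every array the same set of values, so these are differences relative to other genes. With each array centred instead on its 27 ribosomal protein genes, 13 of the 43 genes were called lower, and all 31 genes named lower here still had differences below 0. That scaling raised the standard error of each gene to 0.0919.

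**Figure D2:**
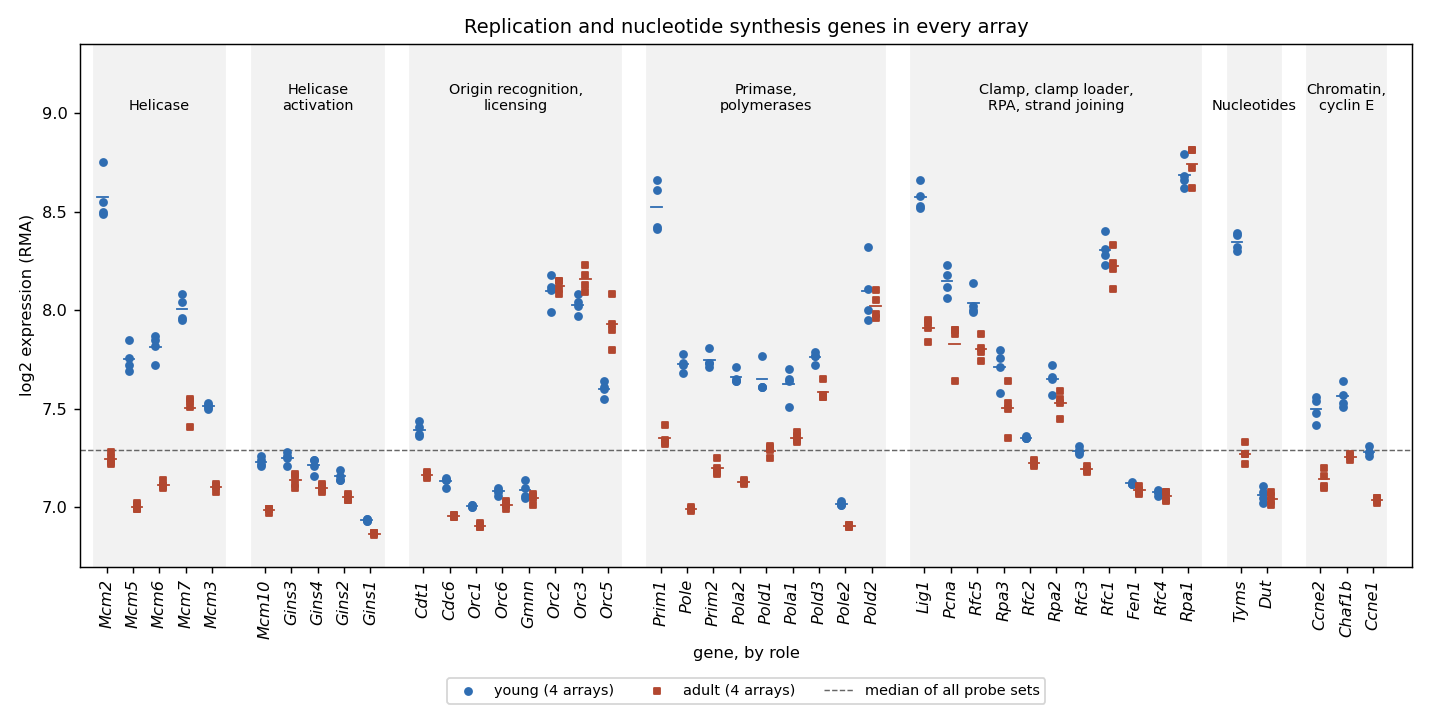
Log2 expression (y axis) of the 43 measured genes in every array, grouped by role (x axis), with young arrays as blue circles, adult arrays as red squares and short lines for the group means (n = 4 each). Of the 5 helicase genes, 4 drop from above to below the median of all values (dashed line, 7.29), and Mcm7 stays above it. Most polymerase genes drop from above to near or below it, while Orc2, Pold2, Rfc1 and Rpa1 overlap between the ages.

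The helicase was the role group with the largest median difference (-0.70), and all 5 measured subunits were down-regulated. Mcm2, a subunit of the ring that also binds histones, was at 7.23, 7.28, 7.22 and 7.25 in adult arrays and at 8.50, 8.49, 8.55 and 8.75 in young arrays. The groups lay far apart, with the highest value in young replicate 4. Its difference was -1.33 ± 0.0569 (adjusted p = 5.13e-06), a 2.51-fold higher level in young arteries.

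Mcm5 was at 7.02, 6.99, 6.99 and 7.01 in adult arrays and at 7.69, 7.72, 7.76 and 7.85 in young arrays. Its adult values were close to the lower quartile of the array (7.0), and the difference was -0.76 ± 0.0333 (adjusted p = 5.49e-06). Mcm6 was at 7.10, 7.11, 7.14 and 7.11 in adult arrays and at 7.85, 7.87, 7.82 and 7.72 in young arrays. Here young replicate 4 was the lowest of its group, and the difference was -0.70 ± 0.0313 (adjusted p = 5.65e-06).

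Mcm7 differed by -0.51 ± 0.0422 (adjusted p = 7.62e-05). Mcm3 had the smallest difference of the helicase on this scale, with 7.08, 7.11, 7.11 and 7.12 in adult arrays and 7.51, 7.50, 7.53 and 7.52 in young arrays (-0.41 ± 0.012, adjusted p = 1.14e-06). With the lowest intensity of the array subtracted the order turned, with -1.06 for Mcm3 and -0.91 for Mcm7. The 4 arrays of an age differed little for Mcm3, and its gap between the ages was many times that spread. The subunits work as 1 complex, yet their probe sets did not show equal differences. The Mcm2 difference exceeded that of Mcm7 by 0.82, from the Mcm2 minus Mcm7 value within each array (-0.26 ± 0.06 in adult and 0.56 ± 0.16 in young arrays, SD, n = 4; exact permutation test, two-sided, p = 0.0286, adjusted over 6 pairs p = 0.0429). With 70 splits of the arrays, 0.0286 is the smallest p possible, so that no pair could reach 0.01, and pairs were read at an adjusted p below 0.05.

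The helicase activators were all down-regulated, by small amounts from low levels. Mcm10, which binds the helicase at the start of replication, was at 6.97, 6.99, 6.99 and 6.99 in adult arrays and at 7.26, 7.24, 7.22 and 7.21 in young arrays (-0.25 ± 0.0125, adjusted p = 8.81e-06). Its groups did not overlap. The 4 GINS subunits, which form a complex that travels with the helicase, differed by -0.07 to -0.11. Gins3 was at 7.12, 7.16, 7.17 and 7.10 in adult arrays and at 7.28, 7.25, 7.26 and 7.21 in young arrays (-0.11 ± 0.0214, adjusted p = 4.47e-03).

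Gins4 was at 7.12, 7.08, 7.11 and 7.09 in adult arrays and at 7.21, 7.24, 7.24 and 7.16 in young arrays (-0.11 ± 0.0212, adjusted p = 3.87e-03). For Gins3 and Gins4 the nearest adult and young values were close together. Gins1 was at 6.87, 6.87, 6.87 and 6.86 in adult arrays and at 6.93, 6.94, 6.93 and 6.94 in young arrays (-0.07 ± 0.00717, adjusted p = 2.31e-04). The Gins1 values lay close to the lowest value of the array (6.8), where differences are compressed. Of the 5 activators, 3 were called without adult replicate 4 or without young replicate 1, 2 or 3, since Gins3 lost its call without any 1 of 5 arrays and Gins4 without any 1 of 6.

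Licensing factors and the origin recognition complex did not move together. Of 8 genes, 4 were down-regulated, 1 was up-regulated and 3 were not called, and the mean over the group overlapped between the ages (7.39 to 7.43 in adult and 7.41 to 7.44 in young arrays). Cdt1, which brings the helicase to origins, was at 7.15, 7.17, 7.18 and 7.16 in adult arrays and at 7.44, 7.37, 7.36 and 7.41 in young arrays (-0.23 ± 0.019, adjusted p = 7.37e-05). Cdc6, its partner in helicase loading, was at 6.95, 6.95, 6.96 and 6.96 in adult arrays and at 7.15, 7.14, 7.14 and 7.10 in young arrays (-0.18 ± 0.0116, adjusted p = 2.64e-05). Both were lower in every adult array.

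Gmnn, encoding geminin, the inhibitor of Cdt1, differed by -0.04 ± 0.0228 (adjusted p = 0.225) and overlapped between the ages. The difference of Cdt1 exceeded that of Gmnn by 0.19 (Cdt1 minus Gmnn within arrays 0.12 ± 0.02 in adult and 0.31 ± 0.08 in young, SD, n = 4; exact permutation test, p = 0.0286, adjusted p = 0.0429).

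Within the origin recognition complex, Orc1 and Orc6 were lower and Orc5 was higher in adult arteries. Orc1, the largest subunit, was at 6.90, 6.91, 6.92 and 6.90 in adult arrays and at 7.0, 7.0, 7.01 and 7.01 in young arrays (-0.10 ± 0.00848, adjusted p = 9.45e-05). Orc6 differed by -0.07 ± 0.0121 (adjusted p = 2.32e-03). These are differences between low values, each separate between the ages.

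Orc5 was at 7.90, 8.08, 7.93 and 7.80 in adult arrays and at 7.61, 7.60, 7.64 and 7.55 in young arrays. It was the only gene of the 43 called higher, by 0.33 ± 0.0548 (adjusted p = 2.19e-03), and its call was lost when adult replicate 1 and young replicate 4 were both left out (0.32, adjusted p = 0.0162). Orc3 lay apart in the same direction but was not called (0.13 ± 0.036, adjusted p = 0.0232). Orc2 was at 8.15, 8.08, 8.11 and 8.15 in adult arrays and at 8.12, 8.18, 7.99 and 8.10 in young arrays (0.03 ± 0.0398, adjusted p = 0.647). The Orc2 groups overlapped, and the sign turned to -0.01 without young replicate 3. The contrast of Orc1 with Orc2 depended on the scale, at -0.12 on the values as deposited (exact permutation test, p = 0.0571, adjusted p = 0.0571) and at -0.46 with the lowest intensity subtracted (exact permutation test, adjusted p = 0.0343).

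Of the primase and polymerase genes, 8 of 9 were down-regulated, with a median of -0.36. Prim1, the catalytic subunit of primase, was at 7.42, 7.34, 7.33 and 7.32 in adult arrays and at 8.61, 8.41, 8.66 and 8.42 in young arrays. The difference was -1.17 ± 0.0611 (adjusted p = 1.05e-05), with a gap between the ages much wider than the spread of either. Prim2, the regulatory subunit, was at 7.17, 7.18, 7.25 and 7.20 in adult arrays and at 7.71, 7.73, 7.81 and 7.73 in young arrays (-0.54 ± 0.0257, adjusted p = 7.18e-06). Prim1 fell by 0.63 more than Prim2 (Prim1 minus Prim2 within arrays 0.15 ± 0.07 in adult and 0.78 ± 0.11 in young, SD, n = 4; exact permutation test, p = 0.0286, adjusted p = 0.0429).

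Pole, the catalytic subunit of polymerase epsilon, was at 6.99, 6.98, 7.0 and 6.99 in adult arrays and at 7.73, 7.72, 7.68 and 7.78 in young arrays. The adult values were nearly equal and at the lower quartile of the array, and the difference was -0.74 ± 0.0197 (adjusted p = 8.03e-07). Pold1, the catalytic subunit of polymerase delta, differed by -0.36 ± 0.0378 (adjusted p = 2.3e-04). Pole thus fell by 0.38 more than Pold1 (Pole minus Pold1 within arrays -0.30 ± 0.03 in adult and 0.08 ± 0.05 in young, SD, n = 4; exact permutation test, p = 0.0286, adjusted p = 0.0429). Pola2, the accessory subunit of polymerase alpha, differed by -0.53 ± 0.0176 (adjusted p = 1.82e-06) and its catalytic partner Pola1 by -0.27 ± 0.0379.

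The accessory subunits Pold3 and Pole2 were also called lower, by -0.18 ± 0.0251 and -0.11 ± 0.00747. Pold2, an accessory subunit of polymerase delta, was at 7.98, 7.96, 8.05 and 8.10 in adult arrays and at 7.95, 8.00, 8.11 and 8.32 in young arrays (-0.07 ± 0.0811, adjusted p = 0.524). It was the gene of this group that was not called, its groups overlapped, and without young replicate 4 the difference was 0.00.

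**Figure D3:**
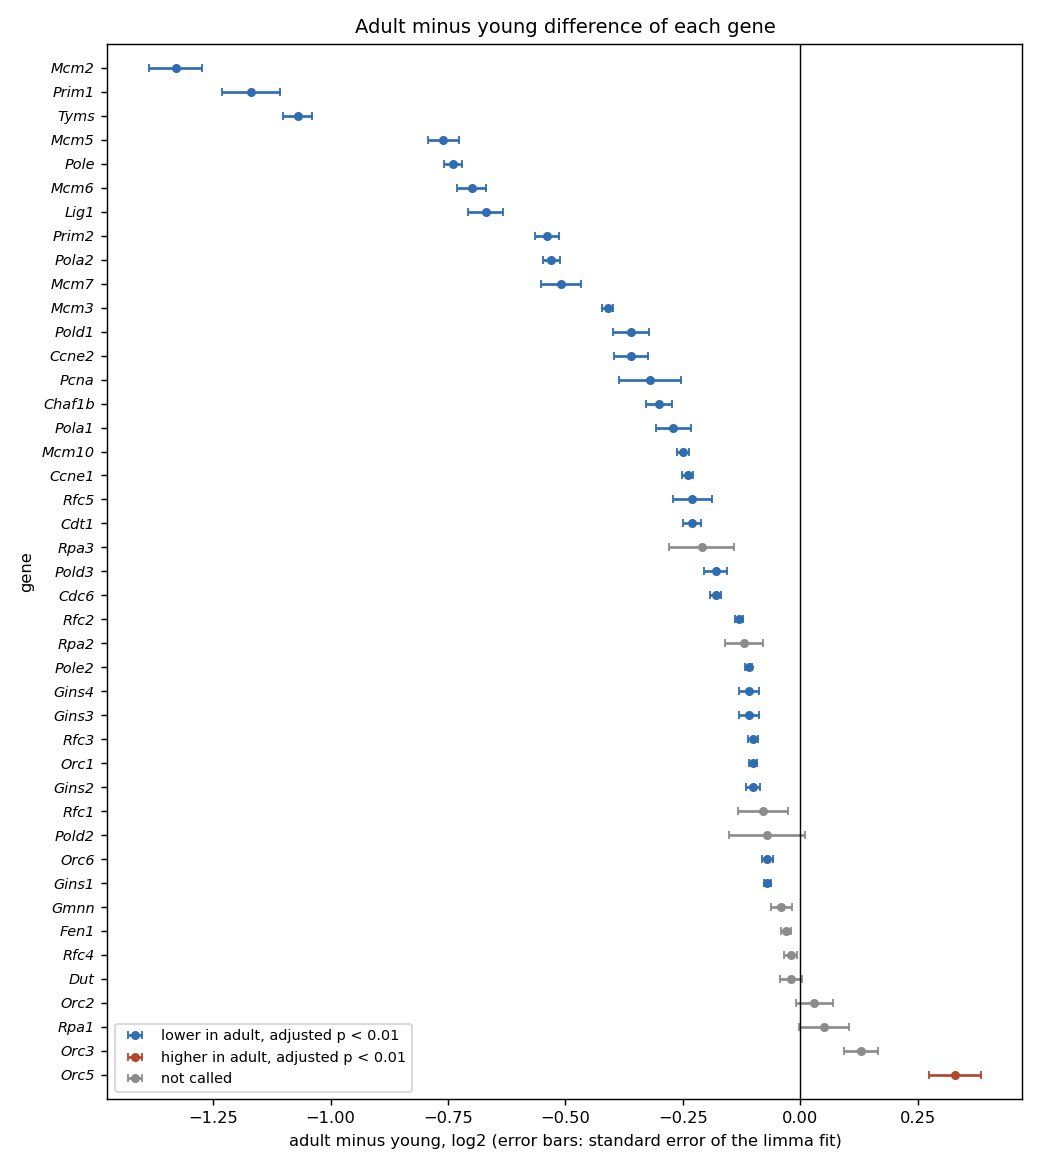
Adult minus young log2 difference (x axis) of the 43 genes (y axis, ordered), with bars for the standard error of the limma fit (n = 4 arrays per age). Blue points were called lower, the red point (Orc5) higher and grey points were not called; Mcm2, Prim1 and Tyms lie below -1.

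The clamp, its loader, replication protein A and the strand-joining enzymes were mixed, with 5 of 11 genes down-regulated, none up-regulated and a median of -0.12. Lig1, the ligase that seals the lagging strand, was at 7.84, 7.94, 7.91 and 7.95 in adult arrays and at 8.58, 8.53, 8.52 and 8.66 in young arrays (-0.67 ± 0.0375, adjusted p = 1.45e-05). Pcna, the sliding clamp, was at 7.64, 7.88, 7.90 and 7.90 in adult arrays and at 8.12, 8.23, 8.18 and 8.06 in young arrays (-0.32 ± 0.0663, adjusted p = 6.38e-03). Adult replicate 1 was far below the other adult arrays for Pcna, and the call was lost when any 1 array other than adult replicate 1 or young replicate 4 was left out (adjusted p up to 0.0206).

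Of the 5 subunits of the clamp loader, replication factor C, Rfc2, Rfc3 and Rfc5 were called lower. Rfc5 was at 7.74, 7.79, 7.88 and 7.81 in adult arrays and at 8.14, 8.00, 7.99 and 8.02 in young arrays (-0.23 ± 0.0412, adjusted p = 2.89e-03), and without adult replicate 2 it missed the threshold (adjusted p = 0.0102). Rfc4 was at 7.04, 7.08, 7.03 and 7.08 in adult arrays and at 7.08, 7.06, 7.08 and 7.09 in young arrays (-0.02 ± 0.0136, adjusted p = 0.254). Rfc4 overlapped between the ages. Rfc1, the large subunit, was not called either (-0.08 ± 0.0532, adjusted p = 0.259).

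The single-strand binding protein, replication protein A, had no subunit called. Rpa1 differed by 0.05 ± 0.0532 (adjusted p = 0.46), Rpa2 by -0.12 ± 0.0406 (adjusted p = 0.0463) and Rpa3 by -0.21 ± 0.0694 (adjusted p = 0.0402). Replication protein A and the clamp loader also act in DNA repair. Fen1, the flap endonuclease, was lower in every adult array by a small amount and was not called (-0.03 ± 0.01, adjusted p = 0.0349), and was at 0.03 with ribosomal protein centring. In this role group 3 genes were called without adult replicate 2.

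Of the deoxynucleotide enzymes among the 49 genes, only Tyms and Dut were measured. Tyms, thymidylate synthase, which makes the thymidine nucleotide for DNA, was at 7.33, 7.27, 7.22 and 7.27 in adult arrays and at 8.38, 8.32, 8.30 and 8.39 in young arrays (-1.07 ± 0.0307, adjusted p = 1.08e-06). Dut, which cleaves the uracil nucleotide and so supplies the substrate of Tyms, was at 7.06, 7.01, 7.03 and 7.08 in adult arrays and at 7.11, 7.05, 7.08 and 7.02 in young arrays (-0.02 ± 0.0232, adjusted p = 0.433). Tyms separated the ages clearly, whereas the Dut values overlapped near the lower quartile of the array.

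Chaf1b and both E cyclins were down-regulated. Chaf1b, a subunit of the factor that places histones on new DNA, was at 7.24, 7.26, 7.26 and 7.27 in adult arrays and at 7.53, 7.51, 7.57 and 7.64 in young arrays (-0.30 ± 0.0278, adjusted p = 1.19e-04). Ccne2 was at 7.10, 7.16, 7.20 and 7.11 in adult arrays and at 7.56, 7.48, 7.54 and 7.42 in young arrays (-0.36 ± 0.0357, adjusted p = 1.75e-04). Ccne1 was at 7.05, 7.02, 7.03 and 7.05 in adult arrays and at 7.31, 7.26, 7.28 and 7.28 in young arrays (-0.24 ± 0.0126, adjusted p = 1.01e-05). The E cyclins drive entry into DNA synthesis with Cdk2, and neither overlapped between the ages. Their differences were 0.12 apart, which missed the 0.05 used for pairs (exact permutation test, p = 0.0571, adjusted p = 0.0571).

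The level at which a gene was measured limited how far its value could fall. Among the genes with a young mean below 7.29, 11 of 15 were called lower (73.3%, against 5.49% of all genes at these levels), with a median difference of -0.10. From that level to the upper quartile (8.07), 15 of 19 were called lower (78.9%, against 21.2%), with a median of -0.30. Above the upper quartile, 5 of 9 were called lower (55.6%, against 31.8%). When the lowest intensity of the array was subtracted and an offset of 16 added before taking log2, the difference of Mcm2 was -2.33 (5.04-fold) and the median of the 43 genes was -0.42. The same 31 genes were then called lower and Orc5 higher. The size of a fold thus depended on how the floor was treated, and the calls of these genes did not.

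**Figure D4:**
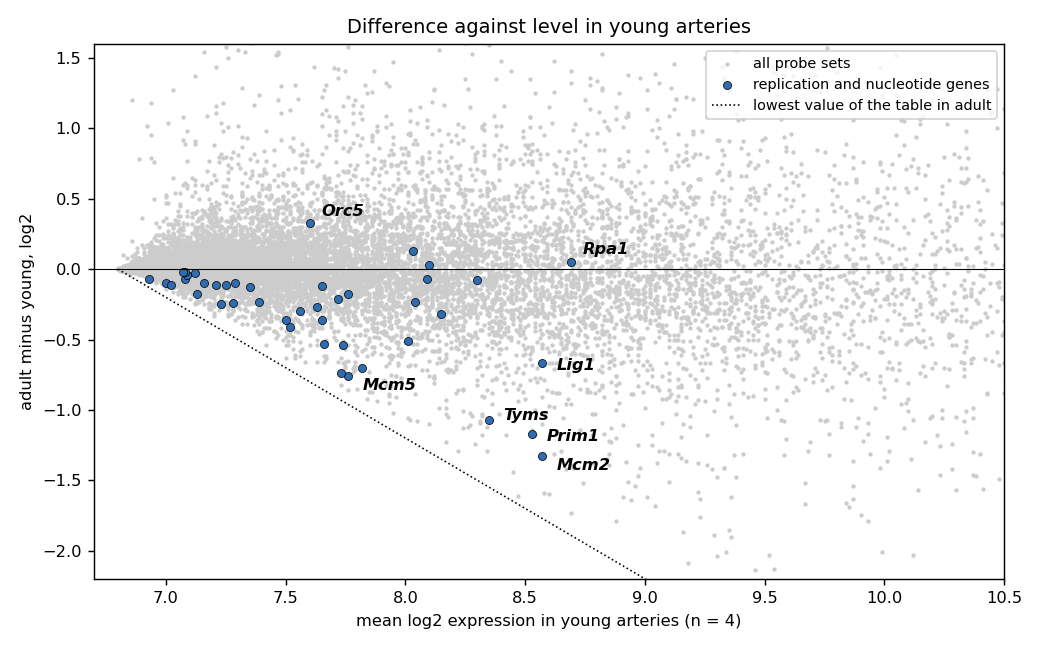
Adult minus young log2 difference (y axis) against mean log2 expression in young arteries (x axis, n = 4) for the 43 genes (blue) and all probe sets within the axes (grey). The dotted line marks an adult level at the lowest value of the array, below which no point can lie; Mcm2, Prim1 and Tyms lie above it and the genes of low young level are held near 0.

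Other genes of the same processes were taken from 4 lists. Of 25 measured genes of origin firing and S-phase control, 19 were lower (76%, against 16% of all genes). In this list 2 were higher (8%, against 16.7%), and the median was -0.15. Cdk2, the kinase partner of the E cyclins, differed by -0.94 ± 0.0665 (adjusted p = 3.64e-05), and E2f1, an activating E2F factor, by -0.57 ± 0.0173 (adjusted p = 1.21e-06). The genes called higher were Cdkn1a, an inhibitor of cyclin-dependent kinases (0.49 ± 0.109, adjusted p = 8.77e-03), and E2f3 (0.09 ± 0.0172, adjusted p = 3.31e-03). Cdkn1c, another inhibitor of the same family, was lower (-0.17 ± 0.0262, adjusted p = 1.72e-03). The count of genes called higher was 0 without young replicate 1, 1 without young replicate 2 or 3 or any 1 adult array, and 2 without young replicate 4.

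Of 29 measured other genes of the replisome and fork, 17 were lower (58.6%, against 16% of all genes), with a median of -0.16. The 4 genes called higher were 13.8% of the list, near the 16.7% of all genes. The lowest were Top2a, the topoisomerase that untangles copied DNA (-1.73 ± 0.0153, adjusted p = 1.2e-08), and Dnmt1, which copies DNA methylation to the new strand (-0.95 ± 0.0201, adjusted p = 4.31e-07). Pold4, the smallest subunit of polymerase delta, was higher by 0.63 ± 0.0432 (adjusted p = 3.31e-05), unlike Pold1 and Pold3. Polg, the polymerase of mitochondrial DNA, was higher by 0.17 ± 0.0309 (adjusted p = 2.94e-03). The higher count was 2 without adult replicate 3 or young replicate 1.

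Other deoxynucleotide genes were called in both directions, with a median of 0.08. Of 17 measured, 3 were lower (17.6%, near the 16% of all genes) and 7 higher (41.2%, against 16.7%). Dctd, which deaminates deoxycytidylate on the way to thymidylate, was lower (-0.90 ± 0.196, adjusted p = 7.71e-03), as was Dck, a salvage kinase (-0.37 ± 0.0378, adjusted p = 1.91e-04). Rrm2b, the ribonucleotide reductase subunit used outside S phase, differed by -0.09 ± 0.0202 (adjusted p = 8.28e-03), and the mitochondrial thymidine kinase Tk2 was not called (0.09 ± 0.0269, adjusted p = 0.0242). The purine-degrading enzymes Pnp (0.81 ± 0.0516, adjusted p = 2.43e-05) and Ada (0.78 ± 0.0531, adjusted p = 3.16e-05) were higher, and so was Samhd1, which breaks down deoxynucleotides (0.08 ± 0.0132, adjusted p = 1.68e-03). The lower count was 1 without any 1 adult array or young replicate 3, and 2 without young replicate 1, 2 or 4.

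Mitosis genes gave the widest differences of these lists, with all 30 measured genes lower (against 16% of all genes) and a median of -0.66. Mki67, a marker of cycling cells, differed by -2.40 ± 0.0585 (adjusted p = 6.16e-07). Whether the mitosis genes fell more than the replication genes was not tested.

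The promoters of the mitosis genes were searched for the same words and for a further pair. An E2F word stood in 1 of 25 mitosis promoters (4%) and in 19 of 38 replication promoters (50%). The CHR word TTTGAA, known from genes of late cell cycle, stood on either strand in 19 of 25 mitosis promoters (76%), in 3 of 38 replication promoters (7.89%) and in 15.8% of promoters on the array. The CCAAT box, searched as CCAAT on both strands, stood in 76%, 52.6% and 37.8% of them. Among the replication genes called lower 15 of 27 promoters held an E2F word (55.6%), and among the others 4 of 11 (36.4%), so that the words were present on both sides of the threshold. These shares are given with no test, and binding was not measured.

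**Figure D5:**
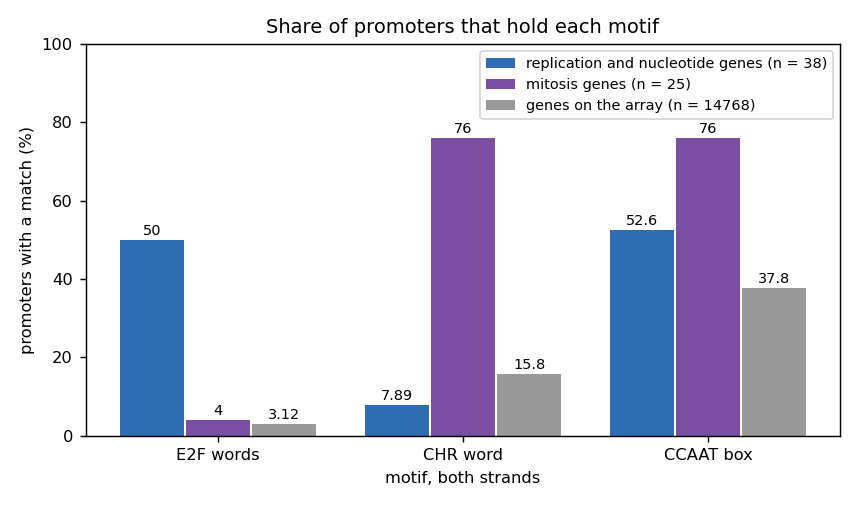
Share of promoters (y axis, percent) that hold an E2F word, the CHR word or the CCAAT box (x axis) in the replication genes (n = 38), the mitosis genes (n = 25) and the genes of the array (n = 14768). E2F words stand in 50% of the replication promoters and the CHR word in 76% of the mitosis promoters.

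Markers of some of the cell types that a dissected artery can hold also differed with age. Of all genes, 16% were lower and 16.7% higher. The 7 measured smooth muscle markers were strong in every array (mean 12.64 to 12.78 in adult and 12.01 to 12.09 in young arrays), and 6 were higher in adult arteries. The 6 measured endothelial markers had a mean of 8.14 to 8.61 in adult and 9.19 to 9.75 in young arrays, with 3 called lower and none higher. The 7 macrophage markers had a mean of 7.72 to 7.89 in adult and 7.41 to 7.54 in young arrays, with 5 called higher. Of 7 fibroblast markers 4 were lower and 2 higher (10.59 to 10.73 and 10.75 to 10.83). Among 7 skeletal muscle markers 1 was called lower (14.3%), and all 7 differences were below 0. Their mean was 7.92 to 8.03 in adult arrays, and 8.47, 7.98, 8.69 and 8.43 in young replicates 1 to 4. The overlap between the ages thus rested on young replicate 2, and the other young arrays lay above all adult arrays. In 5 Schwann cell and nerve markers 1 was lower (20%), and the gap between the means (8.00 to 8.04 and 8.17 to 8.23) rested on Pmp22 (-1.02 ± 0.0777). In 8 T and B cell markers 1 was higher (12.5%), and the gap (7.23 to 7.26 and 7.12 to 7.14) rested on Cd4 (0.84 ± 0.0835). The median difference was 0.02 in both of these lists. These shares were near those of all genes. Of 7 adipocyte markers none was called (7.35 to 7.57 and 7.41 to 7.69). The part of these markers in the difference of the replication genes was not tested.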

How the data were processed

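RNA of rat saphenous arteries was measured on Affymetrix rat gene arrays, with 1 array per sample. RMA with quantile normalization was run by the authors and gave 1 log2 expression value per Entrez gene and array, from 6.8 to 13.82. The sorted values of the 8 columns differed by at most 0.0, and the lowest stands for an intensity of 111 before the logarithm. The background correction settings were not stated in these sources. Every column belonged to a labelled sample.

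Symbols came from the probe annotation given with the array and were brought up to date by Entrez identifier. Of 19239 probe sets, 16592 carried 1 symbol and the other 2647 stay unnamed. Of the 49 genes, 5 were listed under older symbols. The genes, the other lists and the tests were chosen with earlier results of these data known. Values of every array are given, in each role group, for the 3 called genes with the largest difference, the gene with the smallest difference and every gene called higher. From each other list the 2 lowest and 2 highest called genes and a few fixed genes may be named.

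The ages were compared in limma 3.58.1 under R 4.3.3 by lmFit and eBayes without covariates, adjusting p-values over all 19239 probe sets by Benjamini-Hochberg at 0.01. The code was tested on simulated data. Of 10 gene pairs planned, 6 were measured and compared by exact two-sided permutation tests over 70 splits, read at an adjusted p below 0.05. Alternatives were the methods' test, an intensity trend with robust variances, array weights, removal of the dimmest 25% of probe sets, ribosomal protein centring, subtraction of the lowest intensity, a replicate block, a block for sample codes above 20, an adjusted p below 0.05 and each array left out in turn. Leaving out adult replicate 1 and young replicate 4 together was chosen after seeing the data.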

Additional observations from a re-analysis of the deposited data

Results flagged for a closer look

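In 4 of 88 groups of 4 arrays, 1 array lay further from the nearest other than a test for a single outlying value allows. Chance gives about 1 in 20 groups. Pcna in adult arteries was at 7.64 in adult replicate 1, below 7.88 to 7.90 in the other 3 arrays. Pola2 in young arteries was at 7.71 in young replicate 4, above 7.64 to 7.65. Pold1 in young arteries was at 7.77 in young replicate 4, above 7.61 in the others. Pold3 in adult arteries was at 7.65 in adult replicate 1, above 7.56 to 7.57. Adult replicate 1 held the lowest adult value of 18 of the 43 genes, and young replicate 4 held the highest young value of 17 and the lowest of 16.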

How the results depend on the processing

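The 4 arrays per age limit precision, and the values near the floor of the array limit the size of differences. The count of 31 replication genes lower was 28 with the dimmest probe sets left out (40 of the genes remained), 30 with the methods' test and with the sample code block, 31 with trend, weights or floor subtraction, 29 with adult replicate 1 and young replicate 4 both left out, 34 at an adjusted p below 0.05, 25 with the replicate block and 13 with ribosomal protein centring, and 28 to 31 with 1 array left out. Of the 32 called genes, 28 kept the call with each array left out. Same-numbered adult and young arrays did not deviate together (correlations from -0.082 to 0.04), so the numbers do not pair the samples. The replicate block gave 4408 genes in all instead of 6296.

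Ribosomal protein centring gave 3940 genes in all, 1534 lower and 2406 higher, and shifted the median of all genes to 0.068. With it the genes lower were 0 in licensing, 0 in helicase activation, 5 in polymerases, 1 in the clamp group, 1 in chromatin and cyclin E, 6 in origin firing, 7 in other replisome and 2 in de novo synthesis, and those higher were 1 in origin firing, 2 in other replisome and 4 in deoxynucleotide genes. It turned Fen1 to 0.03, Rfc4 to 0.05, Dut to 0.04 and Gmnn to 0.03. The ribosomal protein means were 9.82, 9.96, 10.08 and 10.08 in adult arrays and 10.11, 10.10, 10.06 and 9.94 in young arrays. Centring on them moved every difference up by the same amount and gave each replication gene the same standard error (0.0919). Why the ribosomal protein means varied between arrays was not tested.

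With the replicate block the genes lower were 3 in helicase activation, 3 in the clamp group, 1 in deoxynucleotide genes and 3 in de novo synthesis, and those higher were 0 in origin firing, 2 in other replisome and 0 in de novo synthesis. The sample code block gave 2 replication genes higher (2 in licensing), 1 origin firing gene higher and 1 deoxynucleotide gene lower. The methods' test gave 1 origin firing gene higher and 1 deoxynucleotide gene lower. With both arrays left out, 0 replication genes were higher (0 in licensing), 1 deoxynucleotide gene was lower and Pold2 was at 0.02. At an adjusted p below 0.05, 2 replication genes were higher (2 in licensing), 8 clamp group genes were lower and 6 de novo synthesis genes higher.

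The median of the 43 genes was -0.22 with the dimmest left out, -0.11 with ribosomal centring, -0.42 with the floor subtracted and -0.19 to -0.17 with 1 array left out. The contrast of Orc1 with Orc2 was -0.46 with the floor subtracted (exact permutation test, adjusted p = 0.0343) and -0.15 to -0.09 with 1 array left out. With 1 array left out, the genes lower ranged from 3 to 5 in helicase activation, 3 to 5 in the clamp group and 1 to 2 in deoxynucleotide genes, and those higher from 0 to 2 in origin firing and 2 to 4 in other replisome. Orc2 was at -0.01 without young replicate 3, and Pold2 ranged from -0.12 to 0.00, the latter without young replicate 4.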

Other observations

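The genes of purine and pyrimidine synthesis outside the deoxynucleotide steps were called in both directions, with a median of 0.04. Of 19 measured, 6 were lower (31.6%, against 16% of all genes) and 3 higher (15.8%, near the 16.7% of all genes). Cad, the enzyme that starts pyrimidine synthesis, was lower in adult arteries (-0.89 ± 0.0428, limma, adjusted p = 7.79e-06), as was Shmt2, a mitochondrial enzyme that supplies one-carbon units (-0.64 ± 0.0573, adjusted p = 1.06e-04). Ctps1, which makes cytidine triphosphate, was higher (0.74 ± 0.124, adjusted p = 2.29e-03), and so was Prps2, which makes the ribose phosphate precursor of nucleotides (0.30 ± 0.069, adjusted p = 9.75e-03).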
